A study of Mus musculus with 9 samples.

Results

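Leukotrienes and prostaglandins are lipid signals made from arachidonic acid, and the 10 genes described here encode enzymes that release that fatty acid, turn it into either kind of signal or break prostaglandins down. They were Pla2g4a, Alox5, Alox5ap, Lta4h, Ltc4s, Ptgs1, Ptgs2, Ptges, Hpgds and Hpgd, taken by symbol from a table of 54453 mouse genes. All 10 were among the 16169 genes kept by a filter on low counts. The list was chosen by the enzymes' function, with earlier fold changes between the genotypes in these same tumors known, so the differences between genotypes given for its members are a description and carry no test of their own.

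RNA was measured by mRNA sequencing in 9 frozen primary pancreatic tumors of KPC strain mice, a model of pancreatic ductal adenocarcinoma. Of these, 5 tumors were labelled Scrib null (KPF/+CSF/F; tumors 7, 14, 15, 18 and 23) and 4 were labelled Scrib WT (KPF/+C; tumors 2, 3, 6 and 9). Scrib encodes a scaffold protein of epithelial cell polarity, and the series asked how tumors without it differ from tumors with it. Both groups carried the alleles written KPF/+C, and the null group in addition those written SF/F. The labels do not spell these letters out, give no age or sex and do not say whether each tumor came from its own animal. The p-values below treat the 9 samples as independent, which the labels do not settle, and concern these samples only. RNA came from the frozen tumor as a whole, so it includes whatever other cells the tissue held.

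Estimated counts summed to between 19281212 and 27596832 per tumor in the null group and between 10145830 and 26502285 in the WT group. The lowest total was that of WT 2. Scrib mRNA, the check of the labels, was 60.3 ± 24.6 CPM (SD, n = 5) in the null and 70.5 ± 21.4 CPM (SD, n = 4) in the WT group. The difference on the log2 scale was -0.23 with an SE of 0.31 (adjusted p = 0.712, edgeR), so the gene's total mRNA did not set the groups apart and directions are between tumors as labelled. Tumors null 7 and WT 3 stood apart from the rest in earlier work on these data. Transcripts of Xist and of Y-linked genes marked 2 null tumors (7 and 18) and 1 WT tumor (3) as male. CPM is a count scaled to a common library size by TMM, a method that sets most genes level between tumors.

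Cytosolic phospholipase A2 (Pla2g4a) frees arachidonic acid from membranes, ahead of either branch. In the leukotriene branch, 5-lipoxygenase (Alox5) with its membrane partner FLAP (Alox5ap) oxidises that acid to leukotriene A4. Lta4h turns that product into leukotriene B4, an attractant of neutrophils, and Ltc4s joins it to glutathione to give leukotriene C4, the first of the cysteinyl leukotrienes. In the prostaglandin branch the cyclooxygenases Ptgs1 and Ptgs2 make prostaglandin H2. Ptges turns it into prostaglandin E2, Hpgds turns it into prostaglandin D2, and Hpgd inactivates prostaglandins. Leukocytes are the usual source of 5-lipoxygenase products, while epithelial cells and fibroblasts of pancreatic tumors are known to express Ptgs2.

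Promoter sequences are shown for 4 of the genes to set genes that averaged lower in the null tumors beside one that did not. Alox5 and Ltc4s are leukotriene genes of the first kind, Hpgds is the other gene whose groups did not overlap, and Ptgs2 is the inducible cyclooxygenase, which was not lower. The windows are RefSeq's (GRCm38.p6) and run from 250 bases before the annotated start to 30 bases after it, on the strand of the gene; RefSeq windows were found for 9 of the 10 genes, all but Alox5ap. Capitals mark matches, on either strand, to the GC box GGGCGG, the ETS core AGGAAG, the E-box CACGTG, the cAMP response element core TGACGT and the TATA box TATAAA.
Alox5, chr6:116461149-116461428, minus strand: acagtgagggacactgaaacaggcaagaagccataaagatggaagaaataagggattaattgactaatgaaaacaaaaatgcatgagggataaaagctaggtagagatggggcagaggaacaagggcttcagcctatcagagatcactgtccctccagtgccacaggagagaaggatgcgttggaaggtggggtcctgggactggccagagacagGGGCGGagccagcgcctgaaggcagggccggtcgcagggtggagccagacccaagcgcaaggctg
Ltc4s, chr11:50238503-50238782, minus strand: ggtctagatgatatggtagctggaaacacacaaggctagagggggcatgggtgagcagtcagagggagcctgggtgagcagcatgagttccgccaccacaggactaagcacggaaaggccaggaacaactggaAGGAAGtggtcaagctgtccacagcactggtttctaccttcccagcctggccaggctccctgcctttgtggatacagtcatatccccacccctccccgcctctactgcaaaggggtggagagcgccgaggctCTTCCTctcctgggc
Hpgds, chr6:65144701-65144980, minus strand: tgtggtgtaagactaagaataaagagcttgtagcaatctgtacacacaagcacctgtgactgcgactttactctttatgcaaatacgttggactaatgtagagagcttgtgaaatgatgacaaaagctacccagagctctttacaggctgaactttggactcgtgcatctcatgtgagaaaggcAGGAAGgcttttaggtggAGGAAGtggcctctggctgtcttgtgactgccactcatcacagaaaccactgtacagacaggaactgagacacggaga
Ptgs2, chr1:150099781-150100060, plus strand: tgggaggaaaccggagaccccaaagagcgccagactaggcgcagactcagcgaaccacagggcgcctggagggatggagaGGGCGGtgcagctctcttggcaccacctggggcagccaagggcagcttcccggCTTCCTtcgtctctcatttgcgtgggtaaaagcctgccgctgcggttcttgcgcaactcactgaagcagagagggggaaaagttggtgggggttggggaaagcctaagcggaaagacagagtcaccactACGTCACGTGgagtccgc

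The Alox5 window held 1 GC box, 35 bases before the start. The windows of Ltc4s and Hpgds held 2 ETS cores each and none of the other motifs. The Ptgs2 window held a GC box, an ETS core and, from the thirteenth base of the transcript, an inverted cAMP response element core whose last bases overlap an E-box. Of 32851 windows of this length, 34.7% held the GC box, 32.9% the ETS core, 6.79% the E-box, 7.26% the response element core and 13.1% the TATA box. These matches describe letters in the windows and nothing beyond them.

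Alox5, its partner Alox5ap and leukotriene C4 synthase averaged lower in the tumors labelled null, none past the adjusted threshold, while the group means of Lta4h were nearly equal. Alox5 (chromosome 6, 116410077 to 116461178, GRCm38) had 3.33, 5.10, 8.80, 5.58 and 10.0 CPM in tumors null 7, 14, 15, 18 and 23, against 33.0, 9.02, 5.31 and 13.9 CPM in tumors WT 2, 3, 6 and 9. Tumor WT 2 stood above all others, and WT 3 and WT 6 lay within the null range. The log2 fold change was -1.21 (SE 0.52) over all 9 tumors and -0.51 without WT 2.

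Alox5ap (chromosome 5, 149264767 to 149288153) had 9.64, 20.5, 31.4, 14.1 and 30.0 CPM in null 7, 14, 15, 18 and 23, against 93.1, 66.2, 24.8 and 48.2 CPM in WT 2, 3, 6 and 9. Apart from WT 6, which lay within the null range, the WT tumors were all above the null tumors. The log2 fold change was -1.46 (SE 0.43), and -1.13 without WT 2.

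Ltc4s (chromosome 11, 50236461 to 50238616) had 2.62, 6.99, 7.97, 4.99 and 8.65 CPM in null 7, 14, 15, 18 and 23, against 34.96, 12.03, 14.8 and 9.89 CPM in WT 2, 3, 6 and 9. The groups did not overlap, and the margin between the highest null and the lowest WT tumor was narrow. The log2 fold change was -1.52 (SE 0.45), or -0.96 without WT 2, which held more than any other tumor. An antisense gene, Gm26542, shares exon sequence with Ltc4s and had 98 counts over all tumors against 1915 for Ltc4s. The sources used here do not say whether the libraries kept strand, so reads of the pair may not be told apart.

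Lta4h (chromosome 10, 93453411 to 93484875) had 57.5, 63.6, 56.8, 51.6 and 46.7 CPM in null 7, 14, 15, 18 and 23, against 74.1, 41.8, 47.4 and 60.2 CPM in WT 2, 3, 6 and 9. The groups overlapped throughout and the log2 fold change, -0.02 (SE 0.21), changed sign with the choice of tumors. Pla2g4a (chromosome 1, 149829618 to 149961290) had 63.0, 33.7, 47.8, 37.0 and 53.1 CPM in the null tumors in the same order, against 48.8, 51.8, 72.3 and 76.6 CPM in WT 2, 3, 6 and 9. Of the null tumors 3 were below every WT tumor, and the log2 fold change was -0.41 (SE 0.24).

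**Figure D1:**
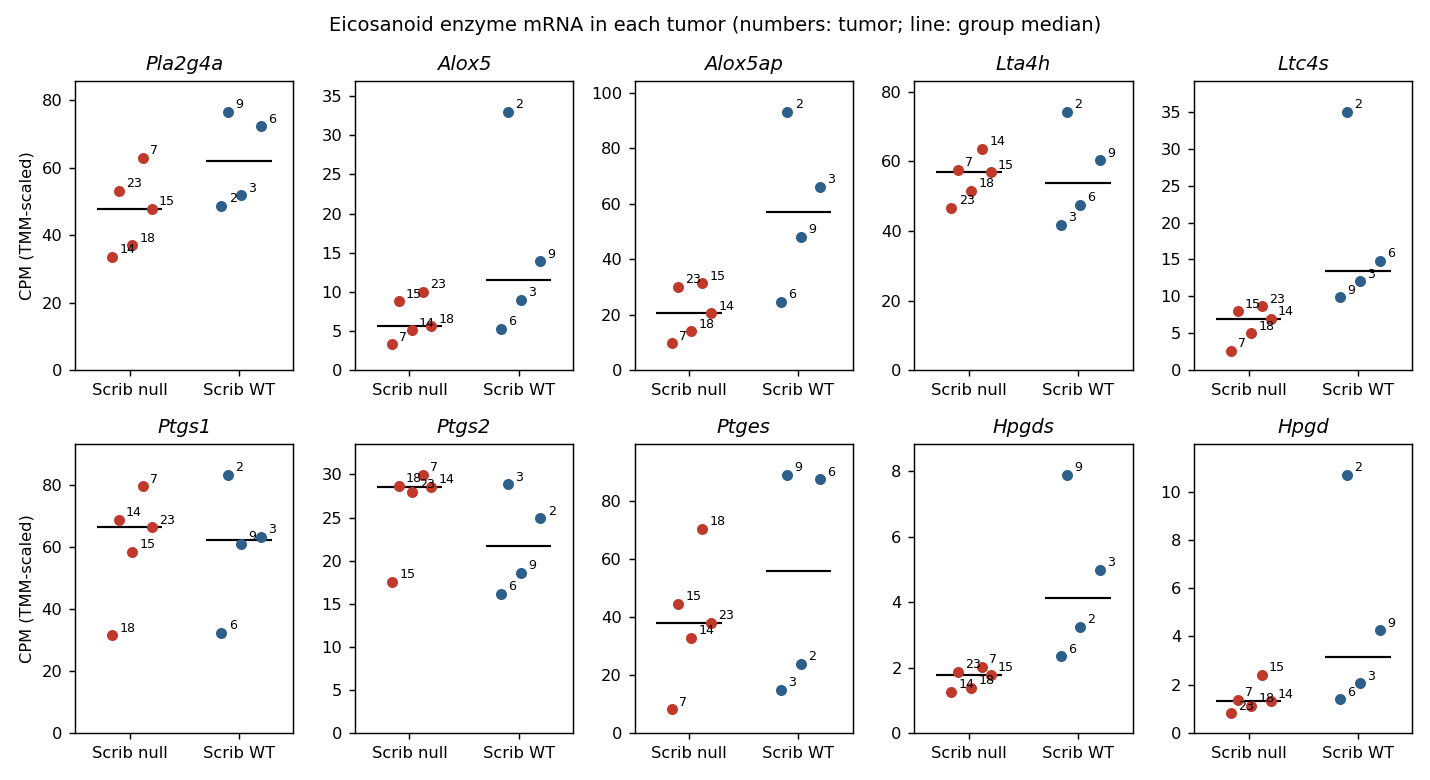
CPM of each of the 10 enzymes (vertical axes from 0, 1 scale per gene) in the 5 Scrib null (red) and 4 Scrib WT (blue) tumors; numbers name the tumors and lines are group medians. The Ltc4s and Hpgds groups do not overlap, WT 2 tops Alox5, Alox5ap, Ltc4s and Hpgd, and the Ptgs1 and Lta4h groups lie over each other.

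In the prostaglandin branch the cyclooxygenases were at similar levels in both groups. Ptgs1 (chromosome 2, 36230426 to 36252272), the constitutive enzyme, had 79.7, 68.9, 58.5, 31.6 and 66.4 CPM in null 7, 14, 15, 18 and 23, against 83.5, 63.5, 32.3 and 61.1 CPM in WT 2, 3, 6 and 9. Each group had 1 low tumor, null 18 and WT 6, and the log2 fold change was 0.02 (SE 0.31). Ptgs2 (chromosome 1, 150100031 to 150108227), the enzyme induced by inflammation and growth signals, had 30.0, 28.6, 17.5, 28.7 and 27.96 CPM in the null tumors in the same order, against 24.9, 28.9, 16.1 and 18.6 CPM in WT 2, 3, 6 and 9. Null tumors other than null 15 were tightly grouped near the highest WT tumor, WT 3. Its log2 fold change was 0.26 (SE 0.25), above 0 with each tumor left out (0.14 to 0.46).

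The enzymes downstream of cyclooxygenase differed from each other. Ptges (chromosome 2, 30889471 to 30929863) had 8.12, 32.9, 44.4, 70.2 and 37.9 CPM in null 7, 14, 15, 18 and 23, against 23.9, 14.8, 87.4 and 89.0 CPM in WT 2, 3, 6 and 9. The WT tumors fell into a low pair and a high pair, with 4 of the 5 null tumors between them, and the log2 fold change was -0.48 (SE 0.62). Hpgds (chromosome 6, 65117293 to 65144908) was low everywhere, with 2.02, 1.26, 1.78, 1.38 and 1.87 CPM in the null tumors in the same order, against 3.25, 4.98, 2.35 and 7.90 CPM in WT 2, 3, 6 and 9. The groups did not overlap, although the highest null and lowest WT values were close, and the counts behind them ran from 24 to 182. The log2 fold change was -1.47 (SE 0.42).

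Hpgd (chromosome 8, 56294585 to 56321043) had 1.36, 1.31, 2.40, 1.117 and 0.812 CPM in null 7, 14, 15, 18 and 23, against 10.7, 2.06, 1.39 and 4.25 CPM in WT 2, 3, 6 and 9. Tumor WT 2 was far above the rest, and WT 3 and WT 6 lay within the null range. The log2 fold change of -1.70 (SE 0.61) was -0.87 without WT 2. Hpgd counts ran from 23 to 112 per tumor.

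In the fit over all genes, 0 of the 10 enzymes passed a Benjamini-Hochberg adjusted p of 0.05 in edgeR's quasi-likelihood test, where 0.0124% of all genes did (2 of 16169). Unadjusted, 5 had p under 0.05 against 17.7% of all genes, and all 5 (Alox5, Alox5ap, Ltc4s, Hpgds and Hpgd) were lower in the null group. DESeq2 called 3 of 10, namely Alox5ap, Ltc4s and Hpgds, against 3.94% of all genes, and limma-voom called 0, against 0.0124% of all genes. The groups did not overlap for 2 of 10, against 6.91% of genes tested. The 10 log2 fold changes had a median of -0.84 and those of all genes tested had a median of -0.03; 8 of 10 were below 0, against 52.2% of all genes. Because the members were chosen with this comparison known, nothing is read from these shares.

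**Figure D2:**
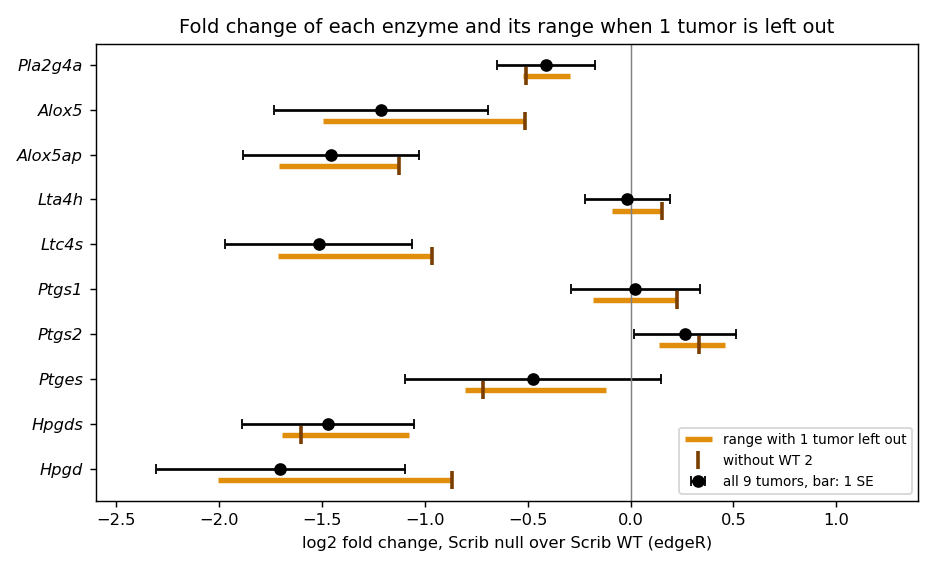
Log2 fold change of each enzyme, Scrib null over Scrib WT (edgeR; black points with 1 SE), with the range when 1 tumor is left out (orange) and the value without WT 2 (brown tick). Alox5, Alox5ap, Ltc4s, Hpgds and Hpgd stay below 0 throughout, from -2.01 to -0.51, and Lta4h and Ptgs1 lie on both sides of 0.

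The differences of those 5 genes were also taken within each sex and within ranges of the identifier in the tumor titles, whose meaning the labels do not give. These 5 were the enzymes with a log2 fold change below -1 over the same 9 tumors. Their direction within parts of those tumors is therefore a description and no separate support. Differences against a single WT tumor rest on that tumor. Among females (3 null and 3 WT tumors) all 5 mean log2 CPM values were lower in the null tumors, with differences, null minus WT, of -1.48 to -0.81. Among males (2 null tumors and WT 3) they differed by -2.50 to -0.70. Among tumors with TB19 identifiers (3 null and WT 2) they differed by -2.71 to -0.93. Among tumors with TB20 identifiers (2 null and 2 WT) Alox5 differed by 0.11, with the opposite sign, and the other 4 by -1.05 to -0.77. WT 9 was the single tumor with a TB22 identifier. Without null 7 and WT 3, the tumors that stood apart, the log2 fold changes were -1.19 for Alox5, -1.16 for Alox5ap, -1.43 for Ltc4s, -1.47 for Hpgds and -1.89 for Hpgd.

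Levels of different genes were compared per length, as CPM per kb of merged exons. Alox5ap had the highest median over the 9 tumors, 21.2 CPM per kb, followed by Ptgs1 with 16.3, Ptges with 9.64, Lta4h with 9.31, Ltc4s with 8.53, Pla2g4a with 8.11 and Ptgs2 with 6.10 CPM per kb. Alox5 had 2.14, Hpgd 0.823 and Hpgds 0.314 CPM per kb. Each pair of neighbours was compared within tumors by an exact two-sided sign-flip permutation test over 9 tumors, adjusted over the 9 pairs. The order came from the medians of these same values, and the p-values do not allow for that. None of the neighbours from Alox5ap down to Pla2g4a differed beyond the spread (adjusted p from 0.288 to 0.992). Pla2g4a was above Ptgs2 in 7 of 9 tumors and Ptgs2 above Alox5 in 8 of 9 (exact permutation adjusted p = 0.0352 for both), while Alox5 was above Hpgd and Hpgd above Hpgds in 9 of 9 (exact permutation adjusted p = 0.0176 for both). With the longest transcript as the length, Ptgs1 had 22.1, Lta4h 17.6, Pla2g4a 15.0 and Ptges 10.4 CPM per kb, so the order in the middle depends on the gene model.

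**Figure D3:**
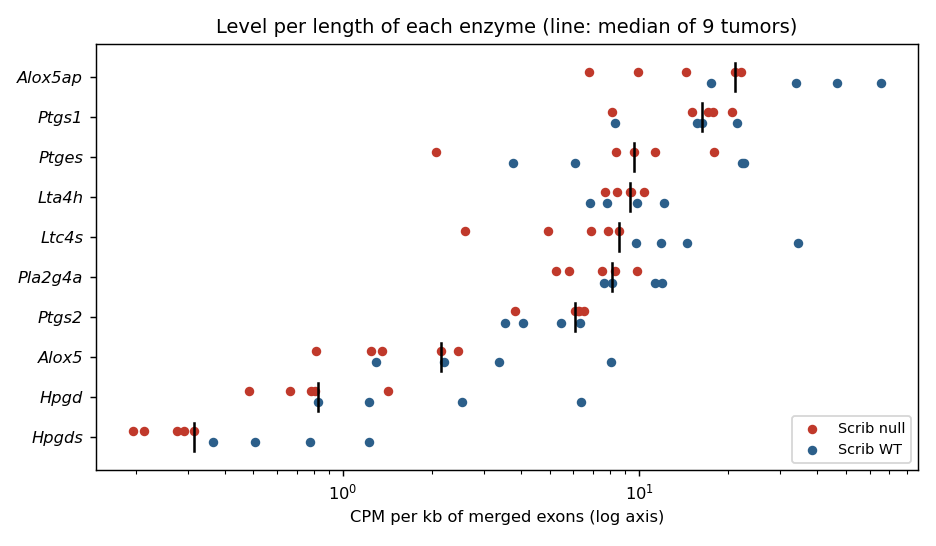
CPM per kb of merged exons (log axis) of the 10 enzymes in Scrib null (red, upper row of each gene) and Scrib WT (blue) tumors; lines are medians of 9 tumors. Alox5ap leads at 21.2 CPM per kb and Hpgds is last at 0.314 CPM per kb, and Ltc4s and Ptges spread more widely than Lta4h and Ptgs2.

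FLAP mRNA exceeded that of 5-lipoxygenase per length in every tumor, 7.29-fold to 11.6-fold in the null and 8.17-fold to 21.2-fold in the WT group. The highest ratio was in WT 3, where Alox5ap was second highest and Alox5 was not. Ptgs1 exceeded Ptgs2 per length in every tumor too, 1.30-fold to 3.94-fold in the null and 2.36-fold to 3.95-fold in the WT group. The spread over tumors set the genes apart as well. Ltc4s and Hpgd each varied over 13-fold between their lowest and highest tumor (13.3-fold and 13.2-fold), Ptges 10.95-fold, Alox5 9.90-fold and Alox5ap 9.66-fold, against 1.78-fold for Lta4h and 1.86-fold for Ptgs2.

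Some of the enzymes varied together across tumors. The pairs of enzymes were added after the data were seen, and r over all 9 tumors takes in any difference between genotypes. Their p-values are therefore given as a description. Pearson's r of log2 CPM was taken for the 45 pairs of enzymes over the 9 tumors, with an exact two-sided permutation test and adjustment over the pairs. Over all tumors 2 pairs passed, and within genotypes 0 passed. Alox5 and Alox5ap had r = 0.89 (exact permutation p = 0.000868, adjusted p = 0.0391) and Spearman's rho = 0.87 (exact permutation p = 0.00451, adjusted p = 0.203). Alox5ap and Ltc4s had r = 0.88 (exact permutation p = 0.00184, adjusted p = 0.0414) and rho = 0.82 (exact permutation p = 0.0108, adjusted p = 0.242). Without null 7 and WT 2, the tumors farthest from the median, r was 0.75 and 0.65. As deviations from the mean of each genotype, so that the difference between genotypes does not enter, r was 0.86 and 0.74 (exact permutation within groups p = 0.00938 and 0.0427, adjusted p = 0.422 and 0.484). In the 6 female tumors r was 0.98 and 0.80 (exact permutation p = 0.00278 and 0.0653). Males and identifier ranges held too few tumors. The remaining leukotriene pair, Alox5 and Ltc4s, had r = 0.82 (exact permutation p = 0.00945, adjusted p = 0.106), which was 0.23 without null 7 and WT 2. Ptgs1 and Ptges went in opposite directions, with r = -0.69 (exact permutation p = 0.0409, adjusted p = 0.235), and did not pass.

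**Figure D4:**
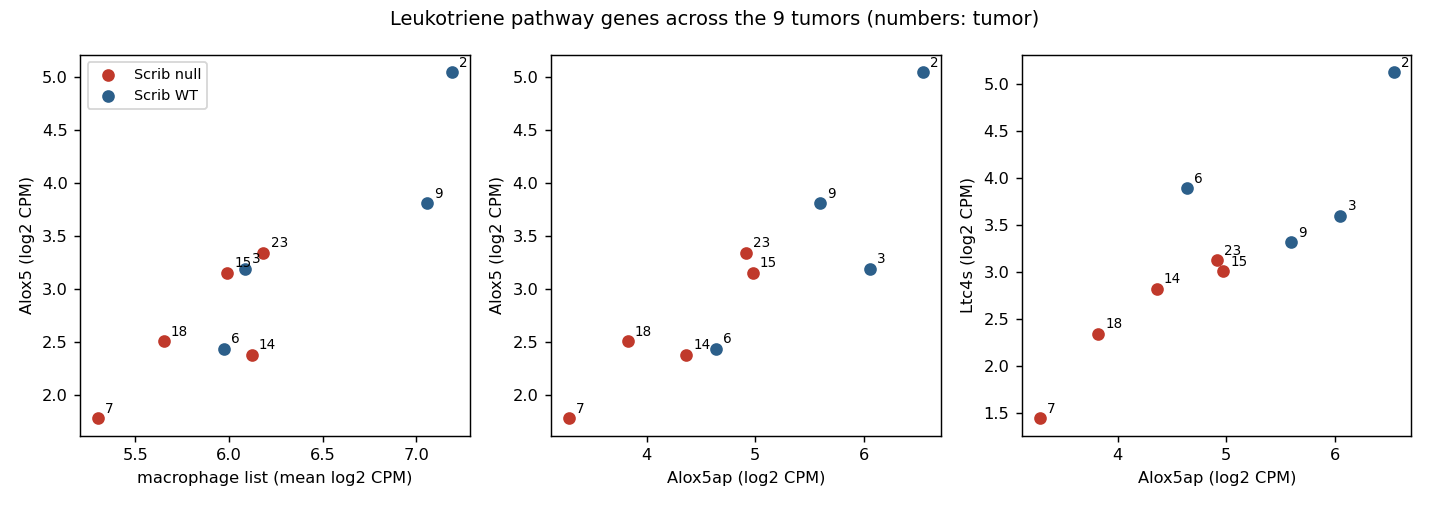
Log2 CPM of Alox5 against the mean log2 CPM of 10 macrophage markers (left) and against Alox5ap (middle), and of Ltc4s against Alox5ap (right), in Scrib null (red) and Scrib WT (blue) tumors; numbers name the tumors. Null 7 is lowest and WT 2 highest in each panel, with r = 0.91, 0.89 and 0.88.

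Whole tumors hold several cell types, so 10 lists of cell type markers, none holding an enzyme described here, were measured beside the enzymes. Sums are over all markers of a list, and fold changes were had for the markers that passed the filter. The mean log2 CPM of a list, used for relations with the enzymes, was also taken over the markers that passed. Counts of directions stand beside 52.2% of all genes with a log2 fold change below 0. In bulk tissue fewer cells of a type and less RNA per cell cannot be told apart. The 10 macrophage markers, such as Csf1r and the C1q genes, summed to 715 to 1223 CPM in the null and 1046 to 2024 CPM in the WT tumors. The highest sum was in WT 2 and all 10 fold changes were below 0. The 10 neutrophil markers summed to 132 to 995 CPM in the null and 418 to 3100 CPM in the WT tumors, with all 10 below 0. Of 9 mast cell markers 4 passed the filter, 3 below 0 and 1 above. All 9 summed to 4.74 to 46.9 CPM in the null and 76.1 to 2765 CPM in the WT tumors, with the top value in WT 3. In that tumor 5 of the 9 were at 0, among them Cpa3, a defining protease, which reached at most 1.06 CPM in any tumor.

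Of 10 tuft cell markers, from a chemosensory epithelial cell known to make both kinds of lipid signal, 6 passed the filter, 4 below 0 and 2 above. All 10 summed to 6.81 to 45.3 CPM in the null and 17.0 to 147.7 CPM in the WT tumors. The defining factor Pou2f3 was 0.263 to 1.27 CPM in the null and 0 to 1.17 CPM in the WT tumors. The 8 platelet markers summed to 11.9 to 64.6 CPM in the null and 24.2 to 59.1 CPM in the WT tumors, and of 5 that passed the filter 3 were below 0 and 2 above. The 10 T and NK cell markers summed to 2.37 to 8.01 CPM in the null and 4.97 to 12.9 CPM in the WT tumors, with 6 of 6 that passed the filter below 0. The 8 B and plasma cell markers summed to 1.82 to 12.6 CPM in the null and 14.2 to 50.2 CPM in the WT tumors, with 6 of 6 below 0. Fibroblast markers summed to 361 to 4540 CPM in the null and 2153 to 9390 CPM in the WT tumors, and endothelial markers to 60.5 to 296.5 CPM in the null and 266.5 to 576.4 CPM in the WT tumors, with 10 of 10 below 0 in each list. Epithelial markers, which check the labelled tumor tissue, were the most abundant list at 7510 to 14111 CPM in the null and 8904 to 12824 CPM in the WT tumors, with 4 below 0 and 6 above. No marker in any list passed edgeR's adjusted p of 0.05, where 0.0124% of all genes did. Of all genes tested, 52.2% had a log2 fold change below 0. The part of any of these cells in the enzyme differences was not tested.

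Across the 9 tumors, 1 of 100 pairs of enzyme and marker list passed the adjusted threshold. Alox5 and the macrophage list had r = 0.91 (exact two-sided permutation p = 0.000402, adjusted p = 0.0402) and rho = 0.82 (exact permutation p = 0.0108, adjusted p = 0.179). Without null 7 and WT 2 r was 0.76. Within genotypes r was 0.87 (exact permutation p = 0.00729, adjusted p = 0.640), and in the 6 female tumors it was 0.87 (exact permutation p = 0.00833). The macrophage list was not alone in this. Alox5 and the tuft cell list had r = 0.68 (exact permutation adjusted p = 0.268) and rho = 0.83 (exact permutation adjusted p = 0.179). Alox5 and the platelet list had r = 0.57 (exact permutation adjusted p = 0.377). Without null 7 and WT 2 these r values were 0.84 and 0.80. After Alox5 and the macrophage list, the pair with the smallest p of Pearson's r was Ltc4s and the B and plasma cell list. It had r = 0.86 (exact permutation p = 0.00131, adjusted p = 0.0656), and 0.83 without null 7 and WT 2. Alox5ap and the macrophage list had r = 0.84, Ltc4s and the macrophage list 0.79, and Hpgd and the macrophage list 0.80 (adjusted p = 0.159 for each, exact permutation). Without the 2 tumors farthest from the median these were 0.59, 0.32 and 0.04, so that of Hpgd rests on WT 2 and WT 9. Over all 9 tumors other lists gave values of the same size. The 4 mast cell markers that passed the filter had r = 0.81 with Alox5ap and with Ltc4s (adjusted p = 0.159 for each, exact permutation). The fibroblast list had r = 0.76 with Alox5ap and 0.82 with Ltc4s (adjusted p = 0.159 for each, exact permutation). Fibroblast markers had r = 0.78 with Alox5 (exact permutation adjusted p = 0.210). The neutrophil list had r = 0.72 with Alox5ap (exact permutation adjusted p = 0.227). Without null 7 and WT 2 the mast cell values were 0.70 with Alox5ap and 0.81 with Ltc4s. The fibroblast values without these 2 tumors were 0.30 with Alox5ap, 0.27 with Ltc4s and 0.50 with Alox5. That of the neutrophil list with Alox5ap was 0.89. For Ptgs2, r was below 0 with 9 of the 10 lists, the epithelial list being the exception at 0.13. None of these pairs passed. Within genotypes the 9 values ran from -0.71 with the B and plasma cell list to -0.05 with the neutrophil list. The relation of Alox5 with macrophage markers did not pass without null 7, null 15, null 18, null 23, WT 2 or WT 9, where 0 pairs passed.

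**Figure D5:**
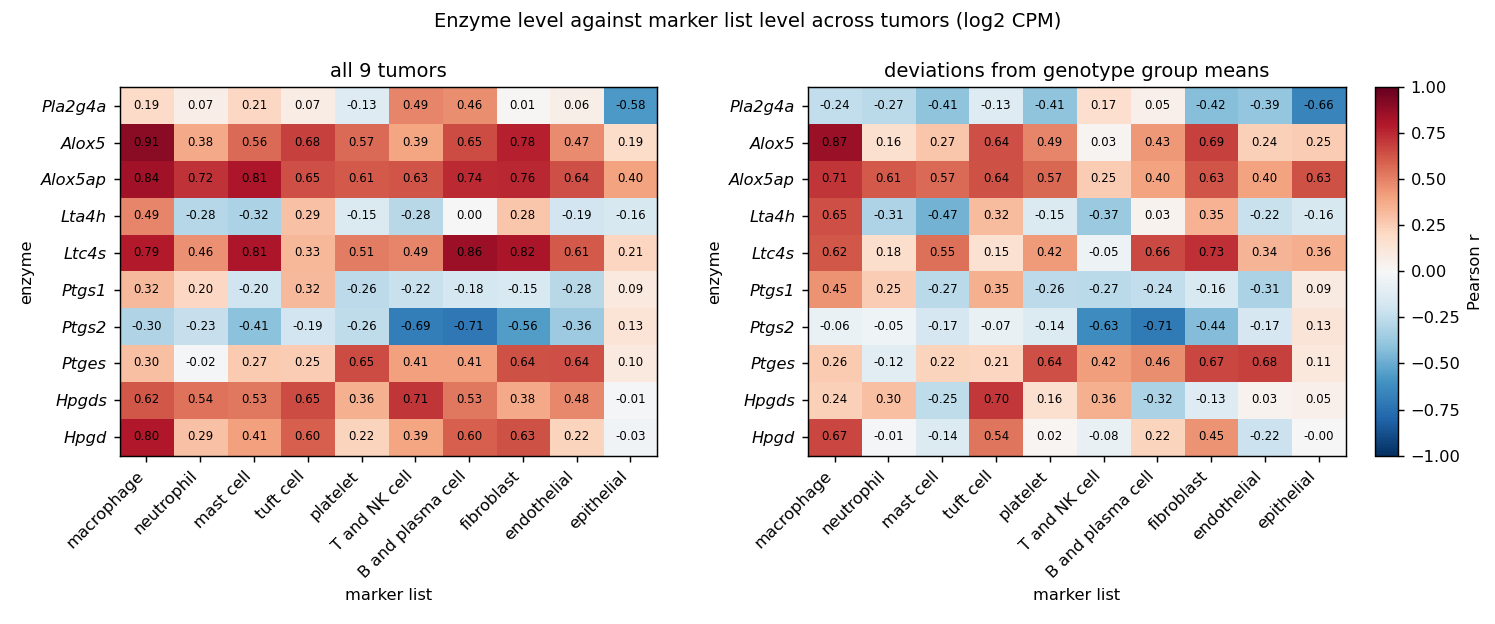
Pearson's r between the log2 CPM of each enzyme (rows) and the mean log2 CPM of each marker list (columns). List means are over the markers that passed the filter. Left: all 9 tumors. Right: deviations from the genotype means. Red is positive and blue negative. Alox5 and macrophage markers are at 0.91 and 0.87, and Ptgs2 is below 0 with 9 of 10 lists on the left.

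The genes most like each enzyme were taken from 12207 genes by r of deviations from the genotype means over 9 tumors, given as a description. They were picked as the 3 highest of all genes searched, so the size of their r owes to that search and is no support. For Alox5 they were Rassf5 (r = 0.98), the G protein subunit Gna15 (0.97) and Lrp4 (0.97). For Alox5ap they were the receptor Relt (0.99), Arhgdib (0.97) and Mcemp1 (0.97). For Ltc4s they were Fbxo7, H2-DMb1 and H2-DMa (0.96 each), the last pair subunits of the chaperone that loads peptides onto MHC class II. For Hpgds they were Hsh2d (0.97), Oas1c (0.95) and Gpnmb (0.94), and for Hpgd Tnfsf12 (0.97), Pcdh19 (0.97) and Crabp2 (0.96). For Ptgs1 they included the ferritin heavy chain Fth1 (0.96) and Mzt2 (0.93), and for Ptgs2 Tmem147os (0.91), Pan2 (0.90) and Rmdn1 (0.89). For Ptges they were the Src family kinase Yes1 (0.97), Prap1 (0.97) and Flrt3 (0.97). For Lta4h they were Ier5l (0.98), Ranbp10 (0.97) and Adrm1 (0.96), and for Pla2g4a Large2 (0.93), Gle1 (0.93) and Prkag2 (0.92). Without taking out the genotype means, r was lower for some, at -0.09 for Rmdn1, 0.29 for Large2 and 0.38 for Gle1. For others, such as Relt, it stayed at 0.99.

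Of 54 other genes of eicosanoid release, synthesis, transport and reception, 36 passed the filter, 27 with a log2 fold change below 0, against 52.2% of all genes, and 9 above. None passed edgeR's adjusted p of 0.05, where 0.0124% of all genes did; 11 were lower and 3 higher at an unadjusted p under 0.05, against 10.0% and 7.64% of all genes. DESeq2 called 4, against 3.94% of all genes, and all 4 were lower in the null group. They were Dpep1, Dpep2, Ggt5 and Mgst3, from the group listed as leukotriene processing. These 4 were named after their values were seen. The pathway list was drawn up with earlier results of these data known. Its shares, here and by role below, are a description, and nothing is read from them.

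The genes tested from the group listed as leukotriene processing were Ggt1, Ggt5, Dpep1, Dpep2, Ptgr1, Ptgr2, Cyp4f18, Mgst2 and Mgst3. The name is that of the list and does not describe every gene in it. Of these genes, 9 of 9 had a log2 fold change below 0, against 52.2% of all genes. None passed edgeR's adjusted threshold, and 7 were lower at an unadjusted p under 0.05, against 10.0% of all genes. Mgst3, a membrane glutathione transferase, had 58.3 ± 19.1 CPM (SD, n = 5) in the null and 185 ± 172 CPM (SD, n = 4) in the WT group, a log2 fold change of -1.67 (SE 0.51; edgeR adjusted p = 0.211). Ggt5, which trims leukotriene C4 to D4, had 4.39 ± 1.75 CPM (SD, n = 5) in the null and 11.4 ± 5.92 CPM (SD, n = 4) in the WT group. Its log2 fold change was -1.37 (SE 0.42, edgeR adjusted p = 0.214). The groups did not overlap for Ggt5, which was 1 of 36 pathway genes tested, against 6.91% of all genes tested. Of the leukotriene receptors, Cysltr1, for cysteinyl leukotrienes, had 2.50 ± 0.52 CPM in the null and 5.16 ± 2.17 CPM in the WT group (log2 fold change -1.04, edgeR adjusted p = 0.231). Ltb4r1, for leukotriene B4, had 3.30 ± 1.87 CPM in the null and 6.31 ± 3.65 CPM in the WT group (log2 fold change -0.93, edgeR adjusted p = 0.377). Ltb4r2, Cysltr2 and Oxgr1 were at most 0.859 CPM in any tumor.

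Of the other prostanoid synthases, 5 of 7 had a log2 fold change below 0, against 52.2% of all genes. Tbxas1, thromboxane synthase, had 13.9 ± 6.45 CPM in the null and 27.6 ± 11.6 CPM in the WT group (log2 fold change -0.99; adjusted p = 0.247, edgeR). Fam213b, a prostaglandin F synthase, had 7.01 ± 3.36 CPM in the null and 14.2 ± 5.68 CPM in the WT group (log2 fold change -1.02; adjusted p = 0.259, edgeR). Prostanoid receptors had 6 of 7 below 0, against the same share of all genes, with 0 at an unadjusted p under 0.05. Tbxa2r, the thromboxane receptor, had a log2 fold change of -0.75, and Ptger4, a prostaglandin E2 receptor, had 18.0 ± 8.54 CPM in the null and 24.5 ± 4.69 CPM in the WT group, a log2 fold change of -0.45. Of the other lipoxygenases Alox15 had a log2 fold change of -1.65 (SE 0.92), with 150 CPM in one WT tumor, and Alox12, the platelet enzyme, one of 0.73 (SE 0.64).

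Genes of release, transport and reduction went both ways, none past the adjusted threshold. Pla2g6, a calcium-independent phospholipase A2, had 45.04 ± 10.4 CPM (SD, n = 5) in the null and 25.03 ± 7.29 CPM (SD, n = 4) in the WT group, a log2 fold change of 0.85 (SE 0.26; edgeR adjusted p = 0.211). Pla2g4c was near the detection limit, at most 3.08 CPM, with a log2 fold change of -1.65 (SE 0.90). Abcc4, an exporter of prostaglandins, had 137.8 ± 30.2 CPM in the null and 75.1 ± 30.6 CPM in the WT group, a log2 fold change of 0.88 (SE 0.31; edgeR adjusted p = 0.227). Cbr1, which reduces prostaglandin E2 to F2-alpha, had 36.3 ± 9.00 CPM in the null and 77.9 ± 39.7 CPM in the WT group, a log2 fold change of -1.10 (SE 0.33; edgeR adjusted p = 0.209).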

How the data were processed

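The authors deposited 1 table of estimated counts per gene and tumor, not normalized; the submitters' processing notes name Salmon 1.4.0, DESeq 2, GRCm38 and mm10, with no annotation release. Symbols, positions and exon lengths came from GENCODE M21 (GRCm38). Members and gene lists were chosen with earlier results of these data known.

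Estimated counts were rounded, which moved no value by more than 0.5. Genes were kept by filterByExpr (minimum count 10). Genotypes were compared with TMM scaling and no covariate by the quasi-likelihood test of edgeR 4.0.16 (R 4.3.3), Benjamini-Hochberg adjusted over 16169 genes; the SE was the log2 fold change over the square root of F. The script was tested on simulated data. DESeq2 1.42.0, limma-voom (limma 3.58.1) and the settings of the closing section were alternatives. Log2 CPM used a prior count of 2. Relations across tumors used exact permutation over all orders of the 9 tumors. Totals ran from 10145830 to 27596832 counts; at the fitted biological coefficient of variation, 0.494, spread between tumors limited precision more than counting. Named were all 10 enzymes, the 2 pathway genes with the smallest p in each role and the 3 genes most like each enzyme, of which 1 is not reported here. Enzyme pairs were added after the data were seen.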

Additional observations from a re-analysis of the deposited data

Results flagged for a closer look

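Of 40 groups examined, 3 held a value that lay far from the others by Dixon's criterion, where chance gives about 1 in 20. Ptgs2 in tumor null 15 was 17.5 CPM, against 27.96 to 30.0 CPM in the other null tumors. The mast cell markers in tumor WT 3 summed to 2765 CPM, against 76.1 to 464 CPM in the other WT tumors. T and NK cell markers in tumor null 15 summed to 8.01 CPM, against 2.37 to 3.68 CPM in the other null tumors. Null 15 thus held both the lowest Ptgs2 and the highest T and NK cell sum of its group.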

How the results depend on the processing

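Counts of calls over all genes, 2 in the main setting, were 7 with no filter, 633 with DESeq2, 1 with sex as a covariate, 0 with the identifier range as a covariate, 0 without both WT 3 and null 7, and 0 to 1 with each tumor left out. Called enzymes numbered 0 in every edgeR and limma-voom setting run, leaving out each tumor included, and 3 with DESeq2. Called pathway genes numbered 0 in those settings and 4 with DESeq2. Of 100 relations with marker lists, 1 passed, against 0 without both WT 3 and null 7, 0 within genotypes and 0 to 2 with each tumor left out. The signs of Lta4h, Ptgs1 and Ptges, all near 0 or with a wide SE, turned in some settings. Lta4h had a log2 fold change of 0.037 with no filter, 0.014 with limma-voom, 0.030 with sex as a covariate and -0.091 to 0.15 with each tumor left out. Ptgs1 had -0.013 with a minimum count of 50, -0.10 with the identifier range, -0.024 without both tumors and -0.18 to 0.23 with each tumor left out. Ptges had 0.15 with the identifier range. The cause was not tested. The other 7 enzymes kept their direction in every setting that tested them; Hpgd was not tested at a minimum count of 50. No paired analysis was possible because the groups share no replicate number.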
